A study of Homo sapiens with 4 samples.

Results

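Interferon-stimulated genes are described here as a group of 9 named genes: the effectors IFIT1, IFIT2, IFIT3, ISG15, MX1, OAS1 and IFI6 and the transcription factors IRF1 and IRF7. They were chosen by gene symbol from the 26485 gene identifiers of the deposited tables, and all 9 were found. All 9 also passed the filter on low values, a mean TPM of 1 or more, which 11723 protein-coding genes passed. TPM is a share of all transcripts that is scaled to gene length. The libraries came from SW1736 and 8505C, cell lines derived from anaplastic thyroid cancer, a dedifferentiated thyroid tumour. Each line was given vehicle (DMSO) or 1.5 µM DHT for 24 h. DHT stands here for dihydrotanshinone, a tanshinone of Salvia root, as the series title names it, and the labels name no interferon treatment. There were 4 groups of 1 library each, so no difference within a line or between lines at 1 treatment has a replicate check.

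Interferons are secreted cytokines that cells release when they sense viral or misplaced nucleic acids. Type I interferons bind a receptor made of IFNAR1 and IFNAR2, the kinases JAK1 and TYK2 are activated, and the complex ISGF3, which holds STAT2 and IRF9, is formed. ISGF3 binds a DNA motif called the interferon-stimulated response element (ISRE), while the gamma-activated site (GAS) is the element of the gamma interferon response. IRF1 and IRF7 are interferon regulatory factors that bind similar elements, and some effectors can also be switched on by such factors without interferon.

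RefSeq start-site windows of 300 bases, from 250 bases before a start site to 50 after it, were found for 7 of the 9 genes (10 windows, GRCh38.p14). An ISRE match, taken as GAAANNGAAA or its reverse complement TTTCNNTTTC, was present in a window of 5 of these genes, beside 3.57% of 35116 windows of the same length at all genes. The 5 genes were ISG15, IFIT1, IFIT3, IFI6 and MX1. A GAS match, taken as TTCNNNGAA, which reads alike on both strands, was present in windows of IRF1, OAS1 and MX1, beside 7.66% of all windows. A match to the kappa-B consensus, the site of NF-kB, was present in IRF1 and MX1, beside 11.3% of all windows. A gene can have several windows: counted by gene, among the 9142 genes with a window and a mean of 1 TPM or more, 3.86% held an ISRE match, 8.49% a GAS match and 17.4% a kappa-B match. Matches are descriptions of letters and not of binding, and in the third MX1 window the GAS match overlapped the ISRE match. Stretches that hold some of these matches are shown because their letters fit the motifs named above, and whether they act in these cells was not tested. The ISRE is in capitals in the first 5, and the GAS followed by the kappa-B match is in capitals in IRF1.
ISG15, chr1:1013362-1013421, plus strand: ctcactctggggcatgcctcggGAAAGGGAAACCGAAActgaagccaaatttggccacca
IFIT1, chr10:89392488-89392543, plus strand: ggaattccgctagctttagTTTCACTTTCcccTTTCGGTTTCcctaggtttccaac
IFIT3, chr10:89327865-89327894, plus strand: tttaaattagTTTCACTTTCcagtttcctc
IFI6, chr1:27672268-27672357, minus strand: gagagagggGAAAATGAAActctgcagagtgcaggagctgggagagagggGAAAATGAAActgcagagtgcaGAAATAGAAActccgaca
MX1, chr21:41420562-41420585, plus strand: cagaaatGAAACCGAAActgaatt
IRF1, chr5:132490809-132490903, minus strand: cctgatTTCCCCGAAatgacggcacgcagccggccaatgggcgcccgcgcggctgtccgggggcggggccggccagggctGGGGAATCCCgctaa

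The stretches of ISG15, IFIT1, IFI6 and IRF1 lie upstream of the start site and touch no GENCODE 29 exon, the IFIT3 stretch touches an IFIT3 exon, and the MX1 stretch lies in an MX1 exon. Counted from the start site, the ISG15 matches ran from -113 to -98, the second overlapping the first. IFI6 held 3 matches, the first at -156 and the last at -93, and IFIT1 held 2, the first at -116. In IRF1 the GAS match began at -124 and the kappa-B match at -50.

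The ratio of coverage to FPKM put the depth at 3.26 to 4.14 Gb aligned per library. The files hold no read numbers, so no counting interval is given. The labelled thyroid origin was checked against 14 thyroid and epithelial markers, which were mixed. KRT7, KRT8 and KRT18, keratins of simple epithelia, lay between 402.5 and 2081 TPM in the 4 libraries, whereas the epithelial adhesion genes EPCAM and CDH1 reached at most 0.184 and 0.0631. KRT19 was at 607 and 883 TPM in SW1736 and listed at 0 in 8505C, and VIM, a filament gene of mesenchymal cells, lay between 3241 and 11431. Of the thyroid transcription factors, PAX8 (87.1 and 117 TPM) and FOXE1 (60.6 and 22.3) were present in SW1736 and at most 0.282 in 8505C, and NKX2-1 (69.8 and 174) was present in 8505C and at 0 in SW1736. Of the thyroid products, TG reached at most 0.0587 TPM, TSHR was listed at 0 in all 4, and SLC5A5, the iodide transporter, was at 2.39 in SW1736 with DHT and at 0 elsewhere. Of 13 markers of blood and immune cells, including plasmacytoid dendritic cells that make much interferon, 7 were listed at 0 in all libraries, among them CLEC4C and LILRA4. The 13 include HBB, a globin gene of red cells. The summed level of the 13 was 20.5 and 25.7 TPM in SW1736 and 56.2 and 73.6 in 8505C, most of it CD68, a lysosomal protein gene, and PTPRC, which marks all leukocytes, reached at most 0.0498.

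With DHT in SW1736, IFIT2 was the single gene of the 9 at least 2-fold apart from vehicle, and the group was uneven: ISG15, IRF7 and IFIT3 were modestly higher, IFI6 and IFIT1 near level, and MX1, OAS1 and IRF1 lower. IFIT2 encodes a tetratricopeptide repeat protein that restrains viral protein synthesis. Folds are differences of log2(TPM + 1), a scale that understates the fold of low genes.

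IFIT2 (chromosome 10, 89301949 to 89309276, hg38 as deposited) was listed at 10.4 TPM (DMSO) and 37.4 TPM (DHT) in SW1736, and at 5.88 and 8.18 in 8505C. The SW1736 library with DHT was thus the high sample and the other 3 lay at or below 10.4. The log2 difference was 1.75 in SW1736, the place 160 of 11723 genes from the highest, and 0.42 in 8505C, the place 359. These log2 differences lay 1.34 apart, and that gap was not tested.

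ISG15 (chromosome 1, 1013467 to 1014539), a ubiquitin-like protein that is joined to other proteins, was the most abundant of the 9 in every library. It stood at 43.5 and 66.6 TPM in SW1736 and at 20.7 and 27.4 in 8505C. Both libraries with DHT were above their vehicle library, by 0.60 and 0.39 on the log2 scale, and both SW1736 libraries were above both 8505C libraries.

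IFIT3 (chromosome 10, 89327819 to 89340968), which stabilises IFIT1 on viral RNA, stood at 18.1 and 23.9 TPM in SW1736 and at 10.6 and 12.1 in 8505C. Its log2 differences were 0.39 and 0.17. IFIT1 (chromosome 10, 89392546 to 89406487), which binds viral RNA whose cap lacks the methyl marks of the cell's own, stood at 5.61 and 4.96 TPM in SW1736 and at 2.39 and 3.21 in 8505C. With DHT it was lower in SW1736, by -0.15, and higher in 8505C, by 0.31. For both genes the SW1736 libraries lay above the 8505C libraries whatever the treatment.

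MX1 and OAS1 were the least abundant of the 9 in every library. MX1 (chromosome 21, 41420558 to 41459214), a dynamin-like GTPase that blocks viral replication, stood at 2.84 and 2.01 TPM in SW1736 and at 1.86 and 1.58 in 8505C. OAS1 (chromosome 12, 112906934 to 112919907), which makes the oligoadenylates that activate RNase L, stood at 3.05 and 1.90 TPM in SW1736 and at 0.964 and 0.916 in 8505C. Both were lower with DHT in both lines, MX1 by -0.35 and -0.15 and OAS1 by -0.49 and -0.04. Mean coverage over their exons was 1.15 to 4.06 reads deep, so small differences of these genes rest on few reads.

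IFI6 (chromosome 1, 27666061 to 27672213), a small membrane protein linked to resistance to cell death, was the most even gene. It stood at 13.9 and 14.5 TPM in SW1736 and at 17.4 and 16.9 in 8505C, with log2 differences of 0.07 and -0.04. In deposited TPM it was the only 1 of the 9 whose 8505C libraries were both above both SW1736 libraries.

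Of the transcription factors, IRF7 (chromosome 11, 612555 to 615999, with a second locus on an alternate haplotype listed at 0), which amplifies the making of type I interferon, stood at 9.50 and 13.3 TPM in SW1736 and at 8.66 and 9.83 in 8505C. Its log2 differences were 0.45 and 0.17. IRF1 (chromosome 5, 132481609 to 132490773), an activator of antigen presentation genes that is itself a target of NF-kB, stood at 18.1 and 12.7 TPM in SW1736 and at 15.3 and 17.5 in 8505C. With DHT it was lower in SW1736, by -0.48, and higher in 8505C, by 0.18. The SW1736 library with DHT was the lowest of the 4 for IRF1 and the highest for IRF7.

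**Figure D1:**
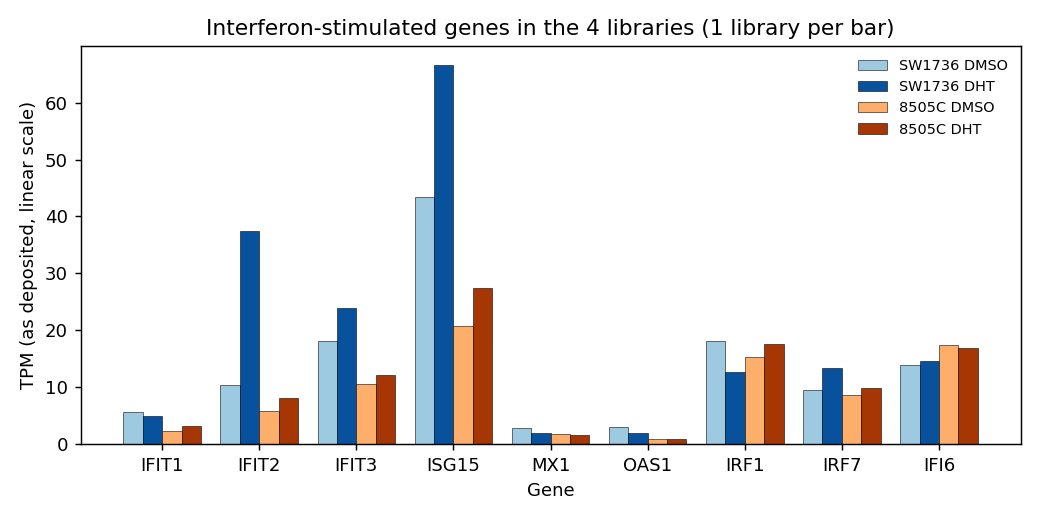
TPM as deposited (y axis, linear from 0) of the 9 interferon-stimulated genes (x axis) in the 4 libraries, 1 bar per library and no error bars since each group is 1 library. IFIT2 stands at 37.4 TPM in SW1736 with DHT and at 10.4 or less elsewhere, and ISG15 is the tallest bar of every library.

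The counts were read beside those of all genes. In SW1736, 1 of 9 was at least 2-fold higher and 0 lower, where 2.78% of the 11723 genes were higher and 15.6% lower. Most genes shared a displacement, with a median log2 difference of -0.43 among genes at a mean of 5 TPM or more. Relative to that median, IFIT2 was at 2.18 and ISG15 at 1.03, so 2 of 9 were at least 2-fold higher, beside 4.78% of genes higher and 4.06% lower. On the same footing IRF7 was at 0.88, IFIT3 at 0.82, IFI6 at 0.49, IFIT1 at 0.28 and MX1 at 0.08, whereas OAS1 and IRF1 were at -0.06. The sign of IFIT1 and MX1 in SW1736 thus turned with this centring. The median of the 9 was 0.07 as deposited, beside -0.42 for all genes tested, and 0.49 when centred. The summed level of the 9 was 125 TPM with DMSO and 177 with DHT, and without IFIT2 it was 115 and 139.9. Most of the rise left without IFIT2 was that of ISG15, from 43.5 to 66.6 TPM.

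In 8505C none of the 9 was 2-fold apart with DHT, and their differences ran from -0.15 for MX1 to 0.42 for IFIT2. As background, 0.273% of genes were 2-fold higher and 0.162% lower, or 0.29% and 0.162% relative to the median gene, where again none of the 9 was. The median of the 9 was 0.17, beside -0.03 for all genes tested, and 6 of 9 were above 0: IFIT2, ISG15, IFIT1, IRF1, IFIT3 and IRF7. The summed level was 83.8 TPM with DMSO and 97.7 with DHT.

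**Figure D2:**
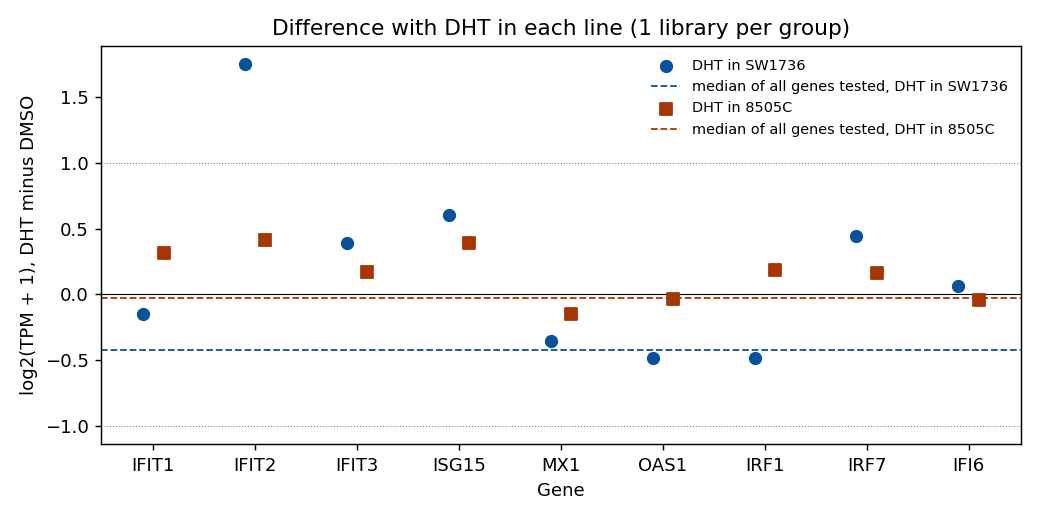
Difference of log2(TPM + 1), DHT minus DMSO (y axis), of each gene (x axis) in SW1736 (circles) and 8505C (squares), each from 1 library per group. Dashed lines are the medians of all 11723 genes (-0.42 in SW1736 and -0.03 in 8505C), dotted lines mark 2-fold, and IFIT2 in SW1736 is the point past 2-fold.

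Treatment was also fitted over both lines with limma, which takes the lines as replicates with the line as a block and leaves 1 residual degree of freedom. The limma fit called 0 of the 9 genes at an adjusted p of 0.05, beside 1.02% of all genes. IFIT2 alone had an unadjusted p under 0.05 in this limma fit, but with median scaling or FPKM ISG15 had one too. The mean log2 difference of IFIT2 was 1.08 with a standard error of 0.51 (limma, adjusted p = 0.683), and it was higher with DHT in 2 of 2 lines. The adjusted p of IFIT2 lay between 0.570 and 0.808 over the alternatives. ISG15 had a mean log2 difference of 0.50 with a standard error of 0.34 (limma, adjusted p = 0.839). The fit estimated infinite prior degrees of freedom, and a gene's own disagreement between lines therefore did not enter its error. This bears on IFIT2, whose difference was far smaller in 8505C.

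The next comparison set the untreated lines side by side. ISG15 and OAS1 were lower by 2-fold or more in 8505C, with log2 differences of -1.04 and -1.05, and no member was 2-fold higher. As background, 12.6% of genes were 2-fold lower and 9.97% higher. IFIT1 was at -0.96, IFIT2 at -0.73, IFIT3 at -0.71, MX1 at -0.43, IRF1 at -0.23 and IRF7 at -0.12, and IFI6 alone was above 0, at 0.31. The median of the 9 was -0.71, beside -0.05 for all genes tested. Relative to the median gene 1 of 9 was 2-fold lower, OAS1 (-1.01), beside 11.9% of genes lower and 10.6% higher, with ISG15 at the edge (-0.999), and with a pseudocount of 5 TPM neither was past it.

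With DHT in both lines, IFIT2 was at -2.07 and ISG15 at -1.25 in 8505C relative to SW1736, and these were the 2 members at least 2-fold lower, beside 10.6% of all genes. IFIT3 followed at -0.93 and OAS1 at -0.60, and none of the 9 was 2-fold higher, beside 24.7% of all genes. Relative to the median gene IFIT3 was past 2-fold as well, at -1.30, and 16.3% of genes were lower and 14.4% higher. This comparison shares its libraries with those above. IRF1 was at 0.44, or 0.06 when centred. IFI6 was at 0.20, or -0.17 when centred, so its sign turned with the centring.

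The limma fit over both treatments, in which the treatments stand in as replicates of a line, called ISG15 and IFIT2 lower in 8505C, that is 2 of 9 beside 31.4% of all genes. ISG15 fell by 1.14 with a standard error of 0.34 (limma, adjusted p = 0.00438, lower in 2 of 2 treatments) and IFIT2 fell by 1.40 with a standard error of 0.51 (limma, adjusted p = 0.0233, lower in 2 of 2). OAS1 was at -0.82 (limma, adjusted p = 0.0607) and IFIT3 at -0.82 (limma, adjusted p = 0.193). With median scaling limma called 5 of the 9, IFIT1, IFIT3 and OAS1 being added, beside 37.2% of all genes. Without a filter on low values it called 0 of all 19083 genes for the line (adjusted p = 0.148 for ISG15 and 0.368 for IFIT2). The prior degrees of freedom were infinite here too, so these errors come from the trend over all genes and not from a gene's own spread, and IFIT2 was at -0.73 untreated and -2.07 treated.

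The IFIT genes lie in a row on chromosome 10, and with DHT in SW1736 their values were spread in both directions. In order along the plus strand, IFIT2 was at 1.75, IFIT3 at 0.39, IFIT1 at -0.15 and IFIT5 at -1.95 on the log2 scale, and IFIT1B was listed at 0 in all libraries. IFIT5 (89414568 to 89421002), a relative that binds RNA with a triphosphate end and was named after its values were seen for its place in the row, was listed at 14.6 TPM (DMSO) and 3.03 TPM (DHT) in SW1736. In 8505C it stood at 14.5 and 13.1, and the row ran from -0.13 for IFIT5 to 0.42 for IFIT2. Thus IFIT2 had the highest and IFIT5 the lowest difference of the row in both lines. LIPA, a lysosomal lipase gene beside the row and chosen likewise, was at -0.77 in SW1736 and -0.15 in 8505C.

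**Figure D3:**
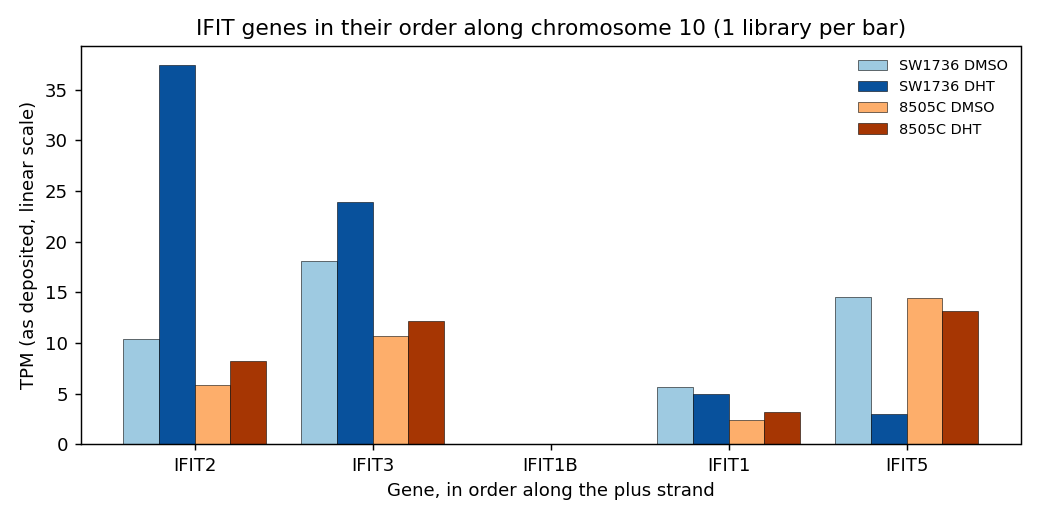
TPM as deposited (y axis, linear from 0) of the 5 IFIT genes (x axis, in their order along chromosome 10) in the 4 libraries, 1 bar per library and no error bars. In SW1736 with DHT, IFIT2 is at 37.4 TPM against 10.4 with DMSO, while IFIT5 is at 3.03 against 14.6, and IFIT1B has no bar.

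The OAS genes of chromosome 12 differed in a like uneven way between lines. OAS2 (112978469 to 113011723), a larger oligoadenylate synthetase, stood at 12.4 and 7.03 TPM in SW1736 and at 0.134 and 0.103 in 8505C. OASL, a relative without that enzyme activity, stood at 7.34 and 11.3 TPM in SW1736 and was listed at 0 in both 8505C libraries. OAS3, named after its values were seen for its place beside them, stood at 9.73 and 4.73 TPM in SW1736 and at 10.8 and 10.3 in 8505C. OAS1 and OAS2 were thus higher in SW1736 whatever the treatment, whereas OAS3 was level between the untreated lines.

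Likeness over the 4 libraries was measured as the largest difference between 2 genes' values of log2(TPM + 1), each centred on its mean. Among 9762 genes, those closest to IFIT2, which had the widest range of the 9 (2.48), included BAG3 (0.15) and SESN2 (0.17). BAG3, a co-chaperone of HSP70, went from 187 TPM to 531 in SW1736 and from 116 to 127 in 8505C. SESN2, a stress-induced sestrin, stood at 7.93 and 31.6 TPM in SW1736 and at 5.16 and 5.56 in 8505C. With 4 libraries this likeness is a description only, and 8 genes lay within 0.25 of IFIT2. IRF1 was closest to NDUFS8 (0.02), TOB2 (0.02) and RNF166 (0.04), but 1492 genes lay within 0.25 of it, so its pattern was common.

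The pathway around the 9 genes was then read from its start, in lists drawn up with earlier results of these data known. Of 21 interferon ligand genes, 11 were listed at 0 in all libraries, and IFNE, an interferon of epithelia, was the only 1 at a mean of 1 TPM, with 1.02 and 1.21 in SW1736 and 1.45 and 1.04 in 8505C. IFNB1, the interferon that most cells release first, was listed at 0 in 3 libraries and at 0.121 TPM in SW1736 with DHT. IFNL1, a type III interferon, was likewise at 0 in 3 and at 0.52 in that library. IFNA1 ran from 0.122 to 0.381 and IFNA13 from 0 to 0.317, both highest in SW1736 with DHT. IFNA4, IFNA5, IFNA7 and IFNA10 were listed above 0 in that library only, at 0.0345 to 0.0551, and IFNA8 only in SW1736 with DMSO, at 0.0592. The IFNA genes are near-identical and share reads. These levels are too low to give a fold.

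Receptors, kinases and ISGF3 were below vehicle in SW1736. Of 12 genes 11 had a mean of 1 TPM or more, and all 11 were below 0 with DHT, with a median of -0.81 beside -0.42 for all genes tested, of which 77.8% were below 0. When centred on the median gene, 9 were below 0 and 2 above. As deposited 3 of 11 were 2-fold lower, beside 15.6% of all genes. STAT2, which carries the activating domain of ISGF3, went from 26.1 to 8.86 TPM (-1.46), the receptor chain IFNAR1 from 24.3 to 9.04 (-1.33) and the kinase JAK2 from 8.64 to 3.72 (-1.03). Relative to the median gene only STAT2 stayed 2-fold lower, at -1.03, beside 4.06% of all genes. IRF9 went from 11.2 to 6.82 TPM (-0.64) and IFNAR2 from 20.0 to 11.1 (-0.79).

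In 8505C none of the 11 was 2-fold apart, beside 0.273% of all genes higher and 0.162% lower, and their median was -0.12. STAT2 stood at 10.5 and 11.5 TPM there, IFNAR1 at 24.4 and 21.6, IRF9 at 9.21 and 11.5, and IFNAR2 at 12.4 and 10.1. STAT2 was also lower in untreated 8505C than in untreated SW1736 (-1.24). IRF3, the factor that switches on IFNB1, was at 129.6 and 109 TPM in SW1736 and at 38.4 and 38.5 in 8505C. Of the 7 other interferon regulatory factors, 3 had a mean of 1 TPM or more, namely IRF2, IRF3 and IRF9. None of these was 2-fold apart with DHT in either line, where in SW1736 2.78% of all genes were higher and 15.6% lower.

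The wider list of other interferon-stimulated genes was read in the same way with DHT in SW1736. Of 61, 50 had a mean of 1 TPM or more, of which 1 was 2-fold higher and 15 lower (2.78% and 15.6% of all genes), with a median of -0.71 beside -0.42 for all genes and 0.07 for the 9, a difference between the lists that was not tested. Relative to the median gene 2 were higher and 5 lower (4.78% and 4.06% of all genes), with a median of -0.29. The 1 higher was ISG20, an exonuclease gene (0.640 and 2.86 TPM), and the 5 lower on both scales were IFIT5, SAMHD1 (-1.53), PARP14 (-1.51), TRIM21 (-1.47) and ADAR (-1.46). Apart from ADAR these were named after their values were seen. TNFSF10, the death ligand TRAIL, went from 10.9 to 3.43 TPM. In 8505C 0 of 50 were 2-fold apart, beside 0.273% of all genes higher and 0.162% lower, and their median was -0.03.

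Between the untreated lines, 11 of the 50 were 2-fold higher in 8505C and 7 lower, with a median of 0.25. Of all genes 9.97% were higher and 12.6% lower, so the 7 lie near the background. IFITM2, a membrane protein that blocks viral entry, stood at 1.63 TPM in SW1736 with DMSO and at 870 in 8505C, and IFITM1 at 25.7 and 165. IFITM genes are near-identical neighbours, and reads may be split between them, so each value alone is uncertain. LAMP3, a lysosomal membrane protein gene, was listed at 0 in both SW1736 libraries and at 81.8 and 80.8 TPM in 8505C. TNFSF10 stood at 10.9 TPM in untreated SW1736 and 0.498 in 8505C. The wider list thus held genes far higher in either line.

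Among sensors of nucleic acids and their adaptors, 15 of 18 had a mean of 1 TPM or more, and with DHT in SW1736 0 were 2-fold higher and 3 lower, with a median of -0.40. That is near the background of 15.6% of genes lower and a median of -0.42. MAVS, the mitochondrial adaptor of RNA sensors, went from 105 to 27.8 TPM (-1.88), ADAR, which edits double-stranded RNA, from 94.1 to 33.5 and TRAF3, a ubiquitin ligase of the pathway, from 21.1 to 9.43. Relative to the median gene MAVS and ADAR stayed 2-fold lower, and the 1 higher was TICAM1 (1.01), named after its value was seen. On that scale 4.78% of all genes were higher and 4.06% lower. MB21D1, which encodes the DNA sensor cGAS, stood at 24.5 and 14.5 TPM in SW1736 and was listed at 0 in both 8505C libraries. In 8505C none of the 15 was 2-fold apart with DHT, beside 0.273% of all genes higher and 0.162% lower. MAVS stood at 44.2 and 49.0 TPM there.

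Of 33 genes of antigen presentation and other gamma-type targets, 23 had a mean of 1 TPM or more. With DHT in SW1736 0 were 2-fold higher and 2 lower, GBP3, a guanylate-binding protein gene (29.2 and 11.9 TPM), and ERAP2, a peptide-trimming protease gene (31.0 and 14.5). The median was -0.09, beside -0.42 and 15.6% lower for all genes. Relative to the median gene 2 were higher and 0 lower, beside 4.78% and 4.06% of all genes. CXCL9, CXCL10 and CXCL11, chemokines that gamma interferon switches on, and IDO1 were listed at 0 in all 4 libraries and were named after this was seen. CD274, the checkpoint ligand PD-L1, stood at 8.81 and 17.3 TPM in SW1736 and at 160.4 and 151 in 8505C.

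Negative regulators, a list also drawn up with earlier results known, included ATF3, the highest difference of the pathway lists in SW1736. Of 14 genes 13 had a mean of 1 TPM or more, and 3 were 2-fold higher and 1 lower, beside 2.78% and 15.6% of all genes. After centring, 4 were higher and 1 lower, beside 4.78% and 4.06% of all genes. ATF3, a stress-induced repressor, went from 5.20 to 161 TPM (4.71), SOCS1, which blocks JAK kinases, from 3.49 to 12.9 (1.63) and SOCS3, a relative of SOCS1, from 11.5 to 36.5 (1.58). PTPN11, a phosphatase gene, went from 122 to 44.7 TPM (-1.43). In 8505C none was 2-fold apart, beside 0.273% of all genes higher and 0.162% lower. ATF3 stood there at 8.86 and 6.87 TPM, SOCS1 at 1.35 and 0.891 and SOCS3 at 30.4 and 29.6. USP18, which removes ISG15 from proteins and restrains the receptor and was named after its values were seen, stood at 1.30 and 1.21 TPM in SW1736 and at 2.93 and 2.25 in 8505C.

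**Figure D4:**
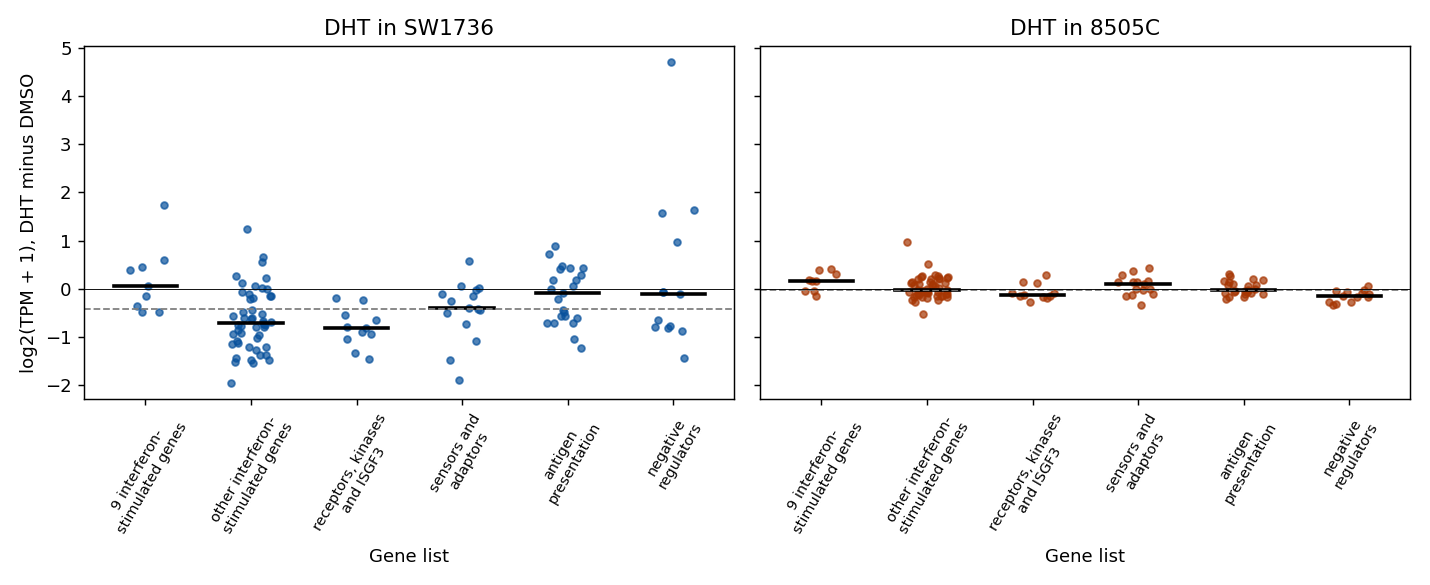
Difference of log2(TPM + 1), DHT minus DMSO (y axis), of the genes with a mean of 1 TPM or more in 6 gene lists (x axis) in SW1736 (left) and 8505C (right), 1 point per gene, 1 library per group. Black bars are list medians and the dashed line is the median of all genes tested, which is -0.42 in SW1736. The 9 genes have a median of 0.07 there and the other interferon-stimulated genes one of -0.71, while the 8505C points lie close to 0.

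Genes with an ISRE match in a start-site window were read as a further group. Of the 9142 genes tested that have a window 353 held a match. With DHT in SW1736 3.68% of these 353 were 2-fold higher and 16.7% lower, with a median of -0.48. Among the 9142 genes with any window 2.61% were higher and 15.9% lower, with a median of -0.43. In 8505C 0% of the 353 were higher and 0.283% lower, with a median of -0.03. ISG15, IFIT1, IFIT3, IFI6 and MX1 were among the 353, and their differences in SW1736 ran from -0.35 for MX1 to 0.60 for ISG15.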

How the data were processed

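There was 1 library per line and treatment, made with the Universal Plus mRNA-Seq kit, per the labels' protocols. The submitters' processing notes name bcl2fastq 2.20, StringTie and the hg38 build. Sources used here do not give the aligner, annotation or strand setting. The authors deposited TPM, FPKM and mean coverage per gene, per the file headers.

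Rows of 1 identifier were summed. Protein-coding genes were matched by RefSeq symbol, GENCODE 29 name or unique RefSeq synonym, and 11723 with a mean of 1 TPM or more were compared as differences of log2(TPM + 1). Centring subtracted the median difference of genes at a mean of 5 TPM or more. limma 3.58.1 in R 4.3.3 was used (line and treatment, trend, two-sided, Benjamini-Hochberg over all genes). On simulated data for 11723 genes it called 12% of genes changed 1.5-fold in both lines, 68% at 2-fold and 100% at 4-fold. Those shares are for changes of the same size in both lines. The simulated noise had the same spread for all genes. Neither a line difference nor the displacement shared by most genes in SW1736 was simulated, so the real fit may call fewer such changes. How often limma calls a change that differs between lines was not tested. IFIT2 differed in this way, at 1.75 in SW1736 and 0.42 in 8505C. The shares are therefore not read as the power for the 9 genes. Other steps used Python 3.11.15. Genes named by rule outside the 9 were those 2-fold with DHT in a line or 4-fold between untreated lines, at most 6 a list. The rule also took the ligands above 0, and STAT2, IRF9, IRF3, IFNAR1 and IFNAR2. Genes marked above as named after their values were seen lie outside this rule, as do some cell type markers. For likeness the rule took the 3 closest genes. Some genes that the rules take are not reported here. The genes and lists were chosen with earlier results of these data known. Alternatives were other pseudocounts, filters, folds, centring, FPKM, the highest single locus and limma without trend.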

Additional observations from a re-analysis of the deposited data

Results flagged for a closer look

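IFIT1, IRF1 and IFI6 had differences of opposite sign in the lines, a contrast that was not tested, with 1 library per group. IFIT1 was at -0.15 on the log2 scale with DHT in SW1736 and at 0.31 in 8505C. IRF1 was at -0.48 in SW1736 and 0.18 in 8505C. IFI6 was at 0.07 and -0.04, both near 0. Relative to the median gene IFIT1 was at 0.28 in SW1736 and 0.34 in 8505C, so its signs were then alike. With FPKM its signs were alike too, at 0.03 in SW1736 and 0.25 in 8505C. Mean coverage of IFIT1 was 2.14 to 6.12 reads deep, so its small differences also rest on few reads. Relative to the median gene IRF1 was at -0.06 and 0.22, and IFI6 at 0.49 and -0.01.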

How the results depend on the processing

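The number of the 9 genes 2-fold apart with DHT in SW1736 was 1 (IFIT2), and 2 (IFIT2 and ISG15) with median scaling or at 1.5-fold. In 8505C it was 0 under all 8 alternatives. Between untreated lines it was 2, and became 3 with a pseudocount of 0.1 TPM, 0 with one of 5 TPM, 1 with median scaling and 5 at 1.5-fold. It was also 0 of 7 with FPKM and 1 of 6 at a mean of 5 TPM or more, filters that left OAS1 out. With FPKM ISG15 was still tested and fell just short of 2-fold, at -0.9995. Between treated lines the number was 2, and 3 with median scaling or FPKM and 4 at 1.5-fold. Shares of all genes past a fold were computed only at 2-fold, for the main setting and for median scaling. The other fold counts thus have no background and are not read as results about the 9. For treatment limma called 0 of the genes tested under each alternative run, which were 7 with FPKM, 6 at a mean of 5 TPM or more and otherwise 9. Over all genes it called 119, but 2 with median scaling, 2 with FPKM, 2 without trend and 0 without a filter. For the line it called 2 of the 9, or 0 without a filter on low values and 5 with median scaling. No gene past 2-fold changed sign. No library could be left out, since each group has 1. The treatment fit is paired by line, and the labels give no replicate numbers to pair by. Low depth limits MX1 and OAS1 most.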
